A study of Homo sapiens with 6 samples.

Results

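The genes described here encode the poly(A)-binding proteins and the proteins that work with them on the mRNA tail, and they were followed in MKN-74 cells, a human gastric cancer cell line described as epithelial-like. The 10 genes were chosen by name, and all 10 were found among the 12385 genes of the gene table, together with 17 PABPC1 and 11 PABPC4 transcripts among the 40304 transcripts of the transcript table. They comprise the poly(A)-binding proteins PABPC1, PABPC4 and PABPN1, the partners PAIP1, PAIP2 and LARP1, the deadenylase genes PAN2, PAN3 and CNOT7, and the decapping factor gene LSM1. Cells transduced with lentivirus carrying the homeobox transcription factor HOXD9 (LV-HOXD9, labelled as HOXD9 overexpressed, 3 libraries) were compared with cells transduced with the empty lentiviral vector (LV-Vector, labelled as WT, 3 libraries). The vector also carries a green fluorescent protein and puromycin resistance, and both lines were selected with puromycin, where the sample notes give over 14 days (10 μg/ml) and the methods 3 weeks. The labels number the libraries as biological replicates 1 to 3, but separate transductions are not mentioned, and p-values therefore measure the spread between these libraries, which may be technical.

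The poly(A) tail is made in the nucleus, where PABPN1 coats it as it grows, and in the cytoplasm PABPC1 and PABPC4 take its place. PABPC1 joins the tail to the initiation factor eIF4G at the cap, which favours translation, and it is also the platform on which PAN2-PAN3 and the CCR4-NOT complex are brought to the tail to shorten it. Once the tail is short, the LSM1-7 ring binds the end of the mRNA and promotes removal of the cap, after which the mRNA is degraded. PABPC1 is the poly(A)-binding protein that the study followed, mostly at the protein level. By western blotting, the study reported less PABPC1 protein after HOXD9 was knocked down in MKN-74 cells and in a further gastric cancer line. That is a knockdown measured on protein, unlike the overexpression measured on RNA here. The study also measured PABPC1 mRNA by qPCR, which did not change when a long non-coding RNA was overexpressed. The present data are levels of RNA only.

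Sequences at the starts of genes are given for 2 of the 10 genes, since HOXD9 is a factor that binds DNA. Windows of 300 bases, from 250 bases before to 50 bases after an annotated RefSeq start (GRCh38.p14), were taken from a ready-made set. That set held 13 windows for 6 of the 10 genes (PABPN1, PAIP1, PAIP2, PAN2, PAN3 and LARP1). The other genes were not searched, which does not mean that RefSeq lacks a start for them. These were searched on both strands for TTTAT, a core that HOX proteins of the posterior groups are known to prefer, and 34.9% of all 35116 windows of this length held it on 1 strand or the other. PAIP2, which encodes an inhibitor of PABPC1, is shown because it had the most negative fold change of the 10 genes, and PAN3 because it was the only 1 of the 6 whose window nearest to the start of its leading transcript held the core. Both windows are read 5′ to 3′ on the gene's own strand, and capitals mark the core. The PAIP2 window (chr5:139341604-139341903, + strand) has its annotated start 22 bases from the start of the leading transcript and held no match, while a further PAIP2 window, 642 bases from that start, held 1. The PAN3 window (chr13:28138295-28138594, + strand) has its annotated start 488 bases from the start of its leading transcript, and its match began 13 bases after the annotated start. A PABPN1 window 717 bases and a PAIP1 window 332 bases from the start of the leading transcript also held 1 match each. The HOXD9 site that the study mapped upstream of a long non-coding RNA does not hold this core. That site also lies further from the start than these windows reach, so a search of this kind would have missed it. A match, or its absence, describes these letters only.
PAIP2: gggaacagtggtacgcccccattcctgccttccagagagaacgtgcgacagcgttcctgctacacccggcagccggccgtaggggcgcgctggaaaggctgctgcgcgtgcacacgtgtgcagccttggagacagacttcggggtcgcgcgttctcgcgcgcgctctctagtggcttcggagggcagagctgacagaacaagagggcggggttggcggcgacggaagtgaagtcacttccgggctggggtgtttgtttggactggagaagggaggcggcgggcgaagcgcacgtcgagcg
PAN3: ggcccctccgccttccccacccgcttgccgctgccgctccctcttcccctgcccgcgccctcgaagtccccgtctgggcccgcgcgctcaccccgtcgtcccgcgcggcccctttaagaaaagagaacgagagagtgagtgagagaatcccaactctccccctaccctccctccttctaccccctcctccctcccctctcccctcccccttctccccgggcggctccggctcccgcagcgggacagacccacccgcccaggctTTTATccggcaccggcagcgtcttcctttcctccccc

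The targeted gene was examined first. HOXD9 was measured at 26.6, 26.4 and 31.3 FPKM in LV-HOXD9 libraries, against 0, 0.0413 and 0.0309 FPKM in LV-Vector libraries, where FPKM is the number of fragments scaled by transcript length and by the size of the library. All 8 epithelial markers were measured, with summed levels of 1030 to 1070 FPKM in LV-HOXD9 against 880 to 1020 FPKM in LV-Vector libraries. By gene, 5 of the 8 had a negative log2 fold change and 3 a positive one (KRT8, KRT18 and KRT19), with a median of -0.02. Of 9 fibroblast and endothelial markers only COL1A1 was listed (0.924 to 1.05 FPKM in LV-HOXD9, 1.00 to 1.22 FPKM in LV-Vector). The immune markers LYZ and CD68 had log2 fold changes of -0.60 (adjusted p = 0.084 from limma) and -0.17 (adjusted p = 0.469), and their part in the results was not tested. Both tables leave out features of low level, so an unlisted gene is not shown to be at 0. The libraries also differed in a property of the transcripts themselves, their GC content. Across 12054 genes, how far each library deviated from the 6-library average followed GC content with a Spearman rho of -0.0497, -0.0396 and 0.659 in LV-HOXD9 replicates 1, 2 and 3, and of 0.231, -0.601 and -0.295 in LV-Vector replicates 1, 2 and 3. LV-HOXD9 replicate 3 and LV-Vector replicate 2 thus stood furthest apart. The log2 fold change between the groups also rose with GC content across genes (rho = 0.43). Genes of low GC content therefore tended to lower values in LV-HOXD9, and the cause of this trend was not tested.

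Ranked by mean level over the 6 libraries, PABPC1 came first of the 10 genes with 91.7 FPKM, above 97.6% of all genes. It was followed by LARP1 with 57.3 FPKM and PABPN1 with 43.6 FPKM, and the ranges of these 3 genes over the libraries did not meet. Next came PABPC4 (25.0 FPKM), PAIP1 (20.3 FPKM), PAIP2 (15.4 FPKM), LSM1 (12.7 FPKM), PAN3 (9.82 FPKM) and CNOT7 (6.23 FPKM), and each neighbouring pair in this order overlapped in range. PAN2, the catalytic partner of PAN3, was lowest at 1.53 FPKM, above 19.7% of all genes. FPKM is scaled by length, but how the gene values were made from those of the transcripts is not stated. The transcripts of PABPC1 sum to more than its gene value, and the only listed PAN2 transcript averaged less than the gene in both groups. This order therefore describes the listed values and may not be that of the mRNA amounts. How reads were shared between near-identical copies is not stated either, and PABPC1 has many processed pseudogenes.

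None of the 10 genes passed limma at an adjusted p of 0.05 on log2(FPKM + 1), where 0.202% of all genes did (25 of 12385, with 18 lower and 7 higher). At an unadjusted limma p under 0.05, 3 of the 10 were lower (PAIP2, PAN2 and PAN3, against 11.9% of all genes) and 1 was higher (LSM1, against 7.12%). A second rule took an unadjusted p under 0.05 from an ordinary linear model, fitted on the same log2 scale, together with a ratio above 1.2 or below its inverse. The study's list has the same bounds of p and fold, but its test is not stated. By the second rule 1 gene was lower, PAIP2, where 4.6% of all genes were called lower, and 1 was higher, LSM1, where 1.94% were called higher. Over all genes this rule gave 570 lower and 240 higher, and the split moved with the scaling, to 1065 and 150 on a TPM scale and 330 and 315 after quantile normalization. In 3 of the 10 every LV-HOXD9 library lay below every LV-Vector library, as did 17.5% of all genes, and in 2 of the 10 every LV-HOXD9 library lay above, as did 10.9% of all genes. Over the 10 genes the median log2 fold change was -0.030, against -0.044 over all genes. With 3 libraries in each group an exact permutation test cannot give a p under 0.10. In bulk RNA, fewer cells of a kind and less RNA per cell cannot be told apart.

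**Figure D1:**
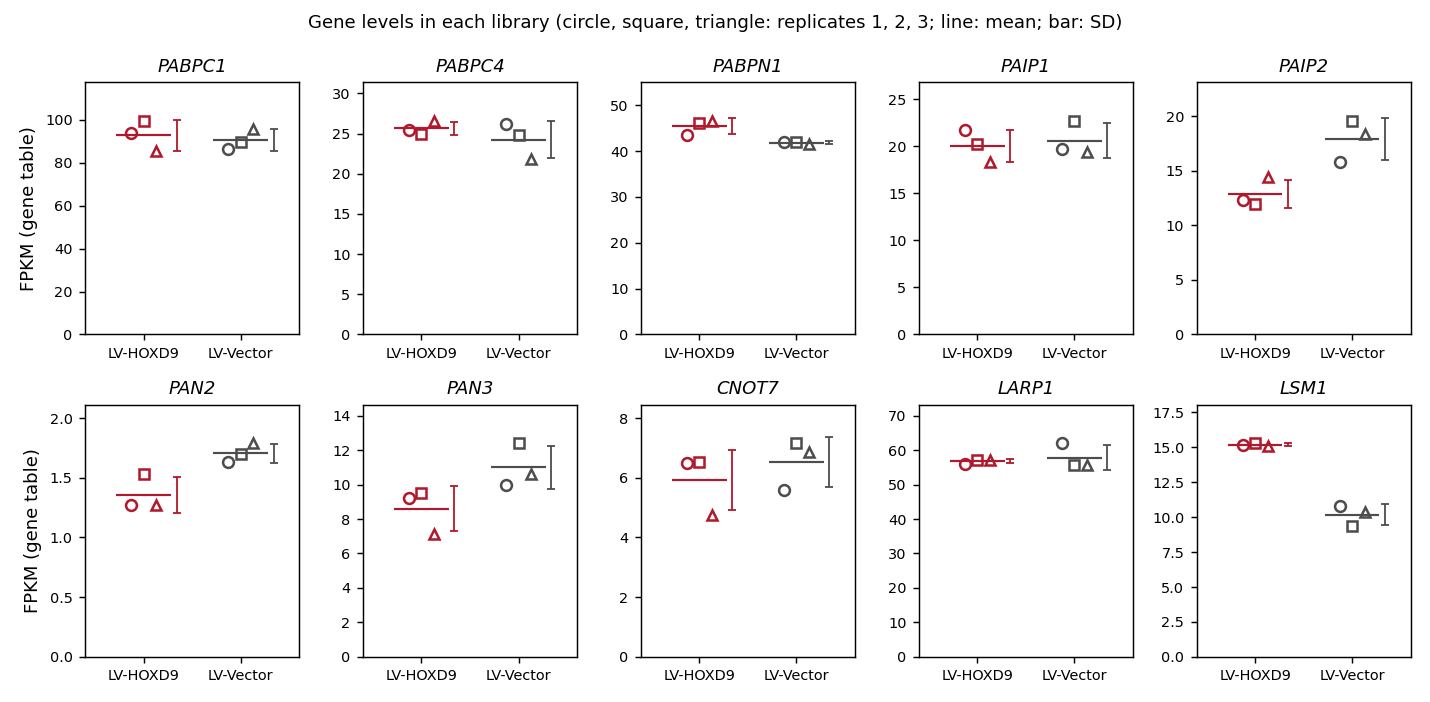
Gene levels of the 10 genes in FPKM (vertical axes from 0, each with its own range), with LV-HOXD9 libraries in red at the left and LV-Vector libraries in grey at the right of each panel. Circles, squares and triangles are replicates 1, 2 and 3, lines are means and bars are SDs of 3 libraries. The LSM1 libraries of LV-HOXD9 lie between 15.1 and 15.3 FPKM, above the 9.38 to 10.8 FPKM of LV-Vector, while the PABPC1 libraries of both groups are mixed.

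The poly(A)-binding proteins were considered first. PABPC1, on chromosome 8 (GRCh37, 101698044 to 101735037, minus strand), was measured at 93.7, 99.6 and 85.3 FPKM in LV-HOXD9 libraries, against 86.3, 89.5 and 96.0 FPKM in LV-Vector libraries. The groups overlapped, and the lowest and the highest of the 6 values were both LV-HOXD9 libraries. Its log2 fold change was 0.033, with a 95% interval of -0.14 to 0.21 and an adjusted p of 0.817 from limma. Its sign was negative on a TPM scale (-0.031) and after quantile normalization (-0.052).

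PABPC4, a cytoplasmic relative of PABPC1 on chromosome 1 (GRCh37, 40026488 to 40042462, minus strand), had 25.4, 25.0 and 26.6 FPKM in LV-HOXD9 libraries, against 26.2, 24.8 and 21.8 FPKM in LV-Vector libraries. The groups overlapped, with LV-Vector replicate 3 the lowest library. The log2 fold change was 0.081 (95% interval -0.10 to 0.27, adjusted p = 0.577 from limma). It was 0.0088 without LV-Vector replicate 3, 0.14 without LV-Vector replicate 1 and 0.020 on a TPM scale.

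The nuclear protein gene PABPN1, on chromosome 14 (GRCh37, 23790498 to 23795394, plus strand), had 43.4, 46.2 and 46.6 FPKM in LV-HOXD9 libraries, against 42.0, 42.0 and 41.5 FPKM in LV-Vector libraries. All LV-HOXD9 libraries were above all LV-Vector libraries, but by a small margin, a log2 fold change of 0.11 (95% interval -0.011 to 0.24, adjusted p = 0.291 from limma), which was 0.051 on a TPM scale and 0.063 after quantile normalization. Some of its neighbours could share its reads. The readthrough gene BCL2L2-PABPN1 overlaps it by 4081 bases on the same strand and averaged 4.07 FPKM in LV-HOXD9 against 4.93 FPKM in LV-Vector, and AL049829.1 overlaps it by 646 bases on the other strand and averaged 9.10 FPKM in LV-HOXD9 against 5.58 FPKM in LV-Vector. The library kit was stranded, whereas the strand setting of the counting is not stated, and the part of these neighbours in the PABPN1 values was not tested.

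The partners that bind PABPC1 were compared next. PAIP1, a coactivator of translation that binds PABPC1 and the initiation machinery (chromosome 5, GRCh37, 43526369 to 43557860, minus strand), was measured at 21.7, 20.2 and 18.3 FPKM in LV-HOXD9 libraries, against 19.7, 22.7 and 19.4 FPKM in LV-Vector libraries. These values overlapped (log2 fold change -0.037, 95% interval -0.25 to 0.17, adjusted p = 0.830 from limma). Its lowest LV-HOXD9 value was in replicate 3 and its highest LV-Vector value in replicate 2, the 2 libraries that stood furthest apart in GC content, and without them the fold change was 0.093.

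PAIP2, which displaces PABPC1 from the tail and represses translation (chromosome 5, GRCh37, 138677276 to 138705409, plus strand), was the gene lower by the unadjusted p and fold. Its level was 12.3, 12.0 and 14.4 FPKM in LV-HOXD9 libraries, against 15.8, 19.6 and 18.4 FPKM in LV-Vector libraries. No LV-HOXD9 library reached the lowest LV-Vector library. The means were 12.9 ± 1.29 FPKM in LV-HOXD9 cells against 17.9 ± 1.93 FPKM in LV-Vector cells (n = 3 each, SD), a ratio of 0.736 on the log2(FPKM + 1) scale, with a log2 fold change of -0.44 (SE 0.102, 95% interval -0.68 to -0.20). The unadjusted p of the ordinary linear model was 0.0182, and the adjusted p from limma was 0.146. This call depended on single libraries, and was lost without LV-HOXD9 replicate 1 or 2 and without LV-Vector replicate 2 or 3, where the log2 fold change remained between -0.42 and -0.38. The GC content of its leading transcript is 39.6%, and after removal of the trends with length and GC content its log2 fold change was -0.31 (adjusted p = 0.190 from limma) and the call was lost.

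LARP1, an RNA-binding protein that associates with PABPC1 and with mRNAs of the translation machinery (chromosome 5, GRCh37, 154092462 to 154197167, plus strand), had 56.1, 57.1 and 57.2 FPKM in LV-HOXD9 libraries, against 62.0, 55.6 and 55.8 FPKM in LV-Vector libraries. All LV-HOXD9 values lay within the range of LV-Vector values. The log2 fold change was -0.0235 (95% interval -0.17 to 0.12, adjusted p = 0.841 from limma).

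Next, the enzymes that shorten the tail were compared. PAN2, the catalytic subunit of the PAN2-PAN3 deadenylase (chromosome 12, GRCh37, 56710007 to 56727837, minus strand), had 1.27, 1.53 and 1.27 FPKM in LV-HOXD9 libraries, against 1.63, 1.70 and 1.79 FPKM in LV-Vector libraries. The groups did not overlap, and the log2 fold change was -0.20 (95% interval -0.39 to -0.015, adjusted p = 0.245 from limma). With a ratio of 0.870 on this scale PAN2 did not pass the fold bound, and at this low level the added 1 shrinks the difference, which was -0.32 with an added 0.1. It was -0.34 on a TPM scale and -0.11 after quantile normalization. PAN2 shares 114 bases with CNPY2 on the same strand, which averaged 13.7 FPKM in LV-HOXD9 against 12.9 FPKM in LV-Vector. The part of CNPY2 in the PAN2 values was not tested.

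PAN3, which holds PAN2 on PABPC1 and on mRNA (chromosome 13, GRCh37, 28712643 to 28869472, plus strand), had 9.21, 9.49 and 7.11 FPKM in LV-HOXD9 libraries, against 10.0, 12.4 and 10.6 FPKM in LV-Vector libraries. The groups did not overlap, with the lowest value in LV-HOXD9 replicate 3 and the highest in LV-Vector replicate 2. Its log2 fold change was -0.33 (95% interval -0.62 to -0.035, adjusted p = 0.237 from limma), and without those 2 libraries it was -0.13. With the trends of length and GC content removed it was also -0.13, and the GC content of the leading transcript is 38.4%.

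CNOT7, a catalytic subunit of the CCR4-NOT deadenylase (chromosome 8, GRCh37, 17082473 to 17104387, minus strand), was measured at 6.51, 6.52 and 4.75 FPKM in LV-HOXD9 libraries, against 5.58, 7.16 and 6.85 FPKM in LV-Vector libraries. The groups overlapped and the interval was wide (log2 fold change -0.13, 95% interval -0.45 to 0.20, adjusted p = 0.616 from limma). CNOT7 had the lowest GC content of the 10 genes, 35.7% in its leading transcript, and its lowest LV-HOXD9 and highest LV-Vector values were again in replicates 3 and 2. The sign turned to 0.064 without these 2 libraries and to 0.10 with the trends removed. CNOT7 shares 308 bases with VPS37A on the opposite strand, which averaged 2.77 FPKM in LV-HOXD9 against 3.09 FPKM in LV-Vector. The part of VPS37A in the CNOT7 values was not tested.

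LSM1, the subunit that marks the cytoplasmic LSM1-7 ring (chromosome 8, GRCh37, 38020839 to 38034248, minus strand), had the largest difference of the 10 genes. It was measured at 15.2, 15.3 and 15.1 FPKM in LV-HOXD9 libraries, against 10.8, 9.38 and 10.4 FPKM in LV-Vector libraries. The LV-HOXD9 libraries were almost level with each other and all lay above the highest LV-Vector library. The means were 15.2 ± 0.0829 FPKM in LV-HOXD9 cells against 10.2 ± 0.744 FPKM in LV-Vector cells (n = 3 each, SD), with a log2 fold change of 0.53 (SE 0.0685, 95% interval 0.37 to 0.69). The unadjusted p of the ordinary linear model was 0.000706. The adjusted p from limma was 0.0502, which misses the threshold narrowly. Over 17 alternative settings the log2 fold change lay between 0.48 and 0.57 and the adjusted p between 0.0223 and 0.210, under 0.05 in 4 of them. Some of these settings change only the test or the minimum level, and their fold change is that of the main fit by construction. BAG4 overlaps LSM1 by 198 bases on the opposite strand and averaged 11.3 FPKM in LV-HOXD9 against 12.7 FPKM in LV-Vector. The part of BAG4 in the LSM1 values was not tested. The other genes of the LSM1-7 ring and of decapping are described with the wider machinery.

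**Figure D2:**
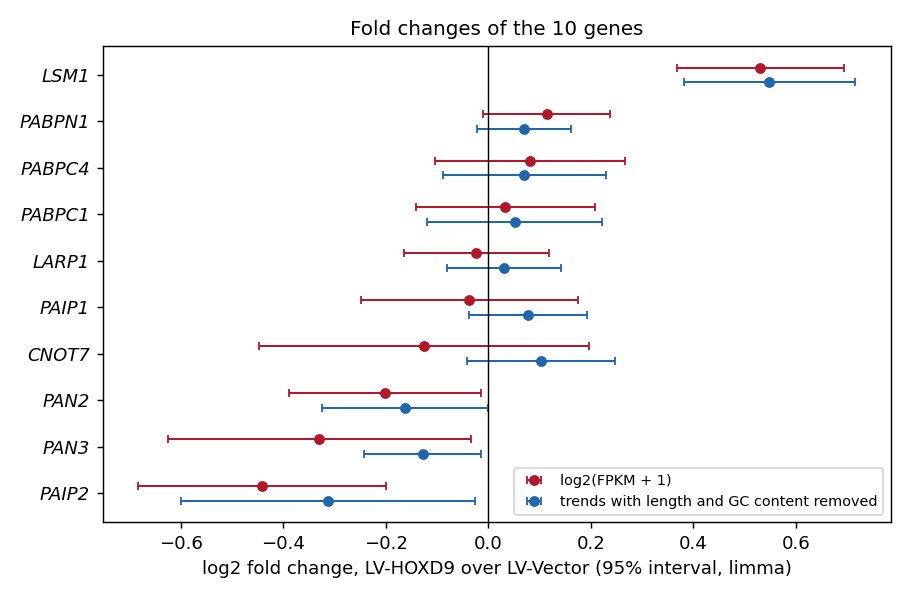
Log2 fold changes of LV-HOXD9 over LV-Vector for the 10 genes (horizontal axis, log2 units; points are estimates and bars 95% intervals from limma), in red on log2(FPKM + 1) and in blue after trends with transcript length and GC content were removed from each library. LSM1 is at 0.53 and 0.55 in these 2 forms, PAN3 at -0.33 and -0.13, and CNOT7 at -0.13 and 0.10.

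The 6 libraries were also compared by transcript, because the level of a gene can hide opposite shifts in its isoforms. For neither PABPC1 nor PABPC4 did a transcript pass limma, where 0.0992% of all transcripts did (40 of 40304). By an unadjusted p under 0.05 and the fold bound of 1.2, 0 of the 17 PABPC1 and 0 of the 11 PABPC4 transcripts were called, where 3.37% of all transcripts were called lower and 2.42% higher. At an unadjusted limma p under 0.05, 1 PABPC1 transcript (PABPC1-202, higher) and 0 PABPC4 transcripts passed, where 3.77% of all transcripts were lower and 3.22% higher. The LV-HOXD9 libraries lay below all LV-Vector libraries in 1 PABPC1 transcript, as in 8.7% of all transcripts, and above them in 1, as in 6.71% of all transcripts.

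PABPC1-202, a protein-coding model of 560 bases (GRCh37, chromosome 8, 101718879 to 101724989), had the largest difference among the transcripts of both genes. It was listed at 73.4, 79.3 and 134 FPKM in LV-HOXD9 libraries, against 10.1, 6.11 and 66.7 FPKM in LV-Vector libraries. The lowest LV-HOXD9 library was just above LV-Vector replicate 3, which itself was far above the other LV-Vector libraries. The log2 fold change was 2.41 with a wide interval (0.30 to 4.53) and an adjusted p of 0.688 from limma, and it moved between 1.77 and 3.39 when single libraries were left out. PABPC1-202 made up 23.9%, 23.2% and 37.5% of the summed FPKM of the PABPC1 transcripts in LV-HOXD9 libraries, against 3.86%, 2.45% and 22.3% in LV-Vector libraries. Without it, the other 16 transcripts summed to 234, 262 and 224 FPKM in LV-HOXD9 libraries, against 251, 243 and 233 FPKM in LV-Vector libraries, which overlapped. FPKM is scaled by length, and the part of the short length of PABPC1-202 in this difference was not tested. The transcript values do not add up to the gene value, since the sum over all PABPC1 transcripts was 307, 341 and 358 FPKM in LV-HOXD9 against 261, 249 and 299 FPKM in LV-Vector libraries, well above the gene value of any library.

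**Figure D3:**
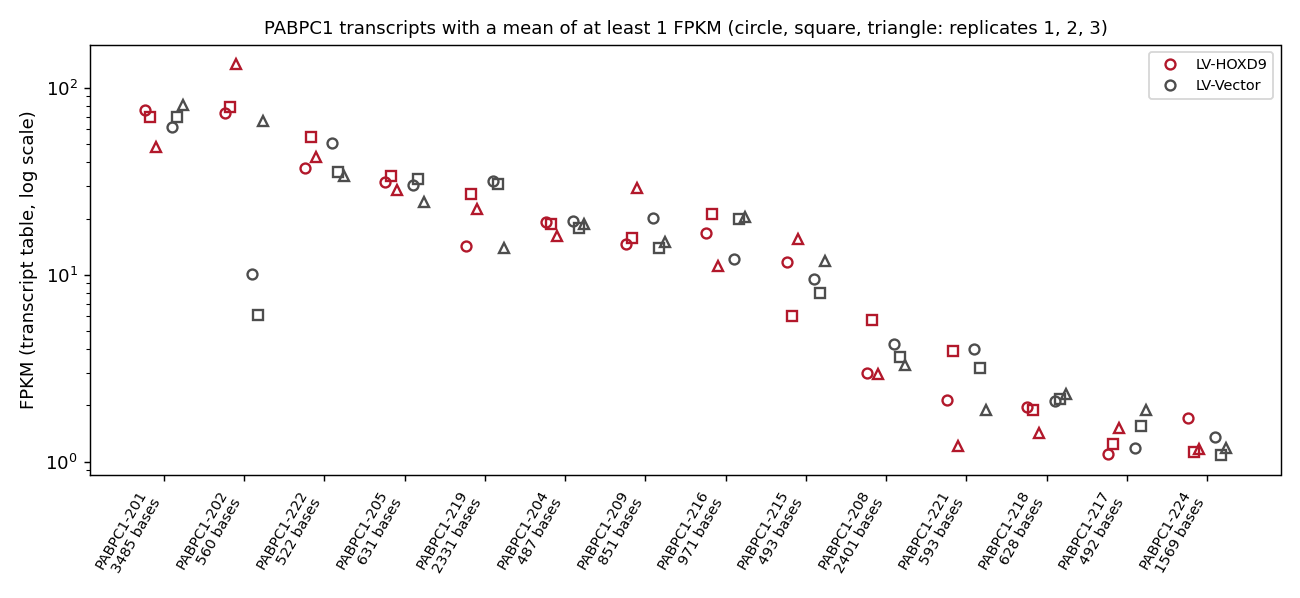
Levels of the 14 PABPC1 transcripts with a mean of at least 1 FPKM (vertical axis, FPKM on a log scale), ordered by mean level, with the length of each in bases. Red symbols are LV-HOXD9 and grey symbols LV-Vector libraries, and circles, squares and triangles are replicates 1, 2 and 3. In PABPC1-202 the grey triangle (66.7 FPKM) stands close to the red circle (73.4 FPKM), while the other LV-Vector libraries are at 10.1 and 6.11 FPKM.

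The longest PABPC1 transcript, PABPC1-201, of 3485 bases, had the highest mean over the 6 libraries, though not in LV-HOXD9 alone, where PABPC1-202 was higher. It was at 76.1, 69.6 and 48.3 FPKM in LV-HOXD9 libraries, against 61.8, 70.1 and 80.8 FPKM in LV-Vector libraries. Its groups overlapped (log2 fold change -0.15, adjusted p = 0.824 from limma). PABPC1-218 was the transcript with LV-HOXD9 below LV-Vector, at 1.95, 1.90 and 1.42 FPKM in LV-HOXD9 libraries, against 2.12, 2.17 and 2.30 FPKM in LV-Vector libraries (log2 fold change -0.22, adjusted p = 0.739 from limma). The remaining 11 PABPC1 transcripts of at least 1 FPKM (PABPC1-222, PABPC1-205, PABPC1-219, PABPC1-204, PABPC1-209, PABPC1-216, PABPC1-215, PABPC1-208, PABPC1-221, PABPC1-217 and PABPC1-224) overlapped between groups. Apart from PABPC1-202, the log2 fold changes of all PABPC1 transcripts lay between -0.28 and 0.21.

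In each of the 11 PABPC4 transcripts the groups overlapped. All 11 had positive log2 fold changes, from 0.0062 to 0.48, but 2 were negative on a TPM scale, 1 after quantile normalization, 2 with the trends of length and GC content removed, 4 without the 2 libraries furthest apart in GC content, and 0 to 2 with single libraries left out. PABPC4-202, the most abundant, had 20.6, 19.6 and 24.5 FPKM in LV-HOXD9 libraries, against 24.3, 29.9 and 11.5 FPKM in LV-Vector libraries (log2 fold change 0.074, adjusted p = 0.961 from limma). It made up 30.7%, 29.6% and 34.9% of the summed PABPC4 transcripts in LV-HOXD9 libraries, against 35.2%, 50.6% and 19.6% in LV-Vector libraries, so the LV-Vector libraries differed among themselves more than the groups did. The 8 other PABPC4 transcripts with a mean of at least 1 FPKM were PABPC4-203, PABPC4-204, PABPC4-201, PABPC4-206, PABPC4-225, PABPC4-207, PABPC4-222 and PABPC4-205.

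The wider machinery of the tail and of mRNA decay was then described with 7 lists, which hold 96 genes including the 10, of which 91 were measured. None of the 91 passed limma. By the unadjusted p and the fold bound 8 of the 91 were lower (4.6% of all genes) and 2 higher (1.94% of all genes), and at an unadjusted limma p under 0.05 there were 15 lower (11.9% of all genes) and 5 higher (7.12% of all genes). The median log2 fold change was -0.037 over the 91 genes and -0.044 over all genes, and with the trends of length and GC content removed the medians were 0.031 for the lists and 0.005 for all genes. Without the 10 genes, 81 genes remained, with 7 lower and 1 higher by the unadjusted p and the fold bound, and a smallest adjusted p of 0.125. In each list, genes are counted as lower or higher by that unadjusted rule, to be read against the same 4.6% and 1.94% of all genes, and 0 passed limma. With the trends removed the medians of the partners, of decay from the 3′ end and of the polyadenylation machinery turned positive. The GC content of the leading transcripts was a median of 46.1% in the lists and 49.7% over all genes.

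Of the poly(A)-binding proteins, 5 of 9 listed genes were measured, with 1 lower and 0 higher by the unadjusted p and the fold bound (median log2 fold change 0.033). The lower gene was PABPC1L, a relative of PABPC1 known from oocytes, at 4.29, 3.49 and 4.46 FPKM in LV-HOXD9 libraries, against 5.01, 5.37 and 5.59 FPKM in LV-Vector libraries. Its groups did not overlap (log2 fold change -0.32, adjusted p = 0.187 from limma), and with the trends removed the value was -0.34.

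Among the partners of poly(A)-binding proteins, 15 of 16 were measured, with 2 lower and 0 higher (median -0.037, and 0.049 with the trends removed). Beside PAIP2 this was EIF4G3, an eIF4G paralogue that bridges PABPC1 and the cap complex, with 11.8, 12.2 and 10.8 FPKM in LV-HOXD9 libraries, against 14.2, 15.5 and 13.9 FPKM in LV-Vector libraries. The groups stood apart (log2 fold change -0.30, adjusted p = 0.154 from limma). The EIF4G3 value was -0.21 with the trends removed, and also -0.21 without LV-HOXD9 replicate 3 and LV-Vector replicate 2. ATXN2, a PABPC1-binding protein of stress granules, also lay below in every LV-HOXD9 library, at a log2 fold change of -0.18 (limma adjusted p = 0.261) that did not pass the fold bound and was -0.12 without the 2 libraries that stood furthest apart in GC content.

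In the list of PAN2-PAN3 and PARN all 4 genes were measured, with 0 lower and 1 higher (median -0.13, and -0.050 with the trends removed). The higher gene was TOE1, a nuclear deadenylase that trims small RNAs, at 11.2, 10.5 and 11.8 FPKM in LV-HOXD9 libraries, against 9.60, 8.30 and 9.18 FPKM in LV-Vector libraries. Every LV-HOXD9 library was above every LV-Vector library (log2 fold change 0.28, adjusted p = 0.174 from limma), unlike PAN2 and PAN3 in the same list.

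All 15 genes of the CCR4-NOT list, which includes the associated BTG proteins, were measured, with 2 lower and 0 higher (median -0.13, and -0.005 with the trends removed). CNOT6L, a catalytic subunit, had 2.84, 3.07 and 1.86 FPKM in LV-HOXD9 libraries, against 3.58, 4.24 and 3.96 FPKM in LV-Vector libraries, which gave a log2 fold change of -0.47 (limma adjusted p = 0.190). This value was -0.28 with the trends removed, -0.31 without LV-HOXD9 replicate 3 and -0.27 without that library and LV-Vector replicate 2. BTG1 and BTG2, antiproliferative proteins that bind CNOT7 and its paralogue CNOT8, ran in opposite directions. BTG1 had 3.03, 2.88 and 2.60 FPKM in LV-HOXD9 libraries, against 4.01, 3.78 and 3.92 FPKM in LV-Vector libraries (log2 fold change -0.36, adjusted p = 0.125 from limma), whereas with the trends removed its value was -0.16. BTG2 had 48.1, 46.3 and 49.9 FPKM in LV-HOXD9 libraries, against 44.3, 40.3 and 42.3 FPKM in LV-Vector libraries (log2 fold change 0.18, adjusted p = 0.205 from limma, and 0.12 on a TPM scale). The difference between these 2 genes was not tested.

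The 16 genes of the LSM1-7 ring and of decapping were all measured, with 0 lower and 1 higher, and the higher gene was LSM1 itself (median 0.028). The other 15 had log2 fold changes from -0.33 to 0.16. The lowest were XRN1, which degrades mRNA from its 5′ end (-0.33), and DCP2, the decapping enzyme (-0.28), neither of which reached an adjusted p of 0.05 in limma (0.222 for XRN1 and 0.252 for DCP2). With the trends removed these became -0.091 for XRN1 and -0.042 for DCP2. Among the partners of LSM1 in the ring, LSM2 to LSM7, the log2 fold changes ran from -0.017 to 0.16, and 0 of 6 had an unadjusted limma p under 0.05.

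In cytoplasmic decay from the 3′ end, 19 of 19 listed genes were measured, with 2 lower and 0 higher (median -0.10, and 0.018 with the trends removed). These were TTC37, a subunit of the Ski complex that serves the exosome (log2 fold change -0.40, adjusted p = 0.191 from limma), and DIS3L2, an exonuclease for uridylated RNA (-0.31, adjusted p = 0.151). TTC37 was at -0.19 with the trends removed and at -0.22 without the 2 libraries that stood furthest apart in GC content. DIS3L2 was measured at 3.04, 2.97 and 3.01 FPKM in LV-HOXD9 libraries, against 3.65, 4.21 and 4.03 FPKM in LV-Vector libraries, and was at -0.32 with the trends removed. PELO, which rescues stalled ribosomes, lay above in every LV-HOXD9 library (log2 fold change 0.25, adjusted p = 0.167 from limma).

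In the polyadenylation machinery, 17 of 17 listed genes were measured, with 1 lower and 0 higher (median -0.11, and 0.052 with the trends removed). PCF11, a factor of 3′ end cleavage and termination, had 5.92, 5.92 and 5.13 FPKM in LV-HOXD9 libraries, against 6.69, 7.55 and 6.80 FPKM in LV-Vector libraries (log2 fold change -0.27, adjusted p = 0.193 from limma), and its log2 fold change was -0.16 without the 2 libraries furthest apart in GC content. PAPOLA, the canonical poly(A) polymerase, also lay below in every LV-HOXD9 library, at a log2 fold change of -0.30 (limma adjusted p = 0.262) that was -0.12 with the trends removed.

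**Figure D4:**
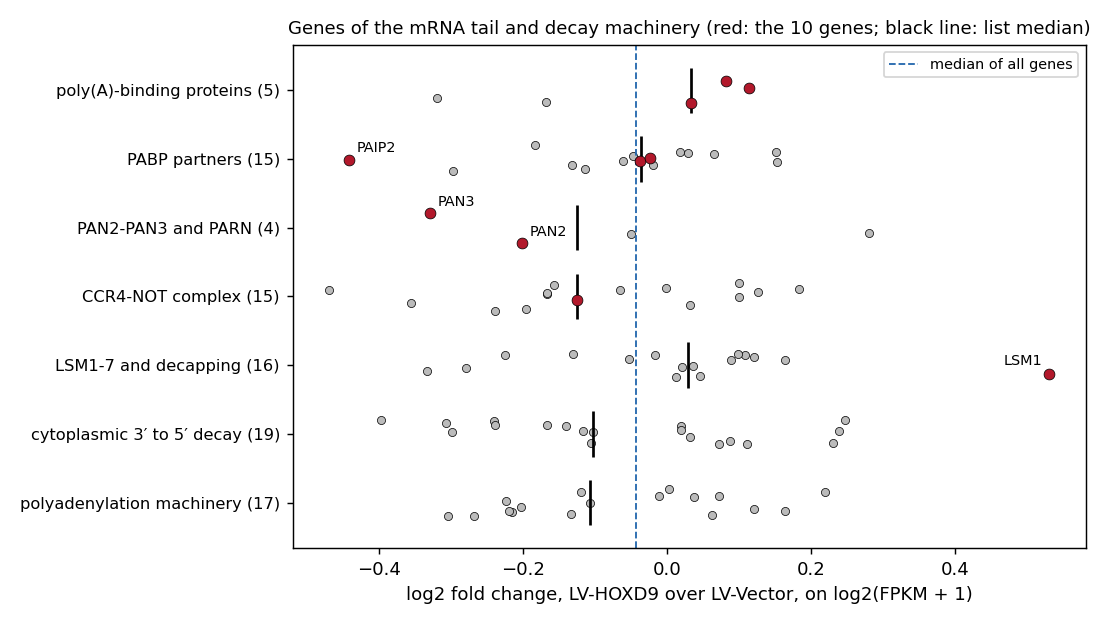
Log2 fold changes of LV-HOXD9 over LV-Vector (horizontal axis, on log2(FPKM + 1)) for the 91 measured genes of the 7 lists, with the number measured beside each list. Red points are the 10 genes, grey points the others, black bars the list medians and the dashed line the median of all genes (-0.044). LSM1 (0.53) lies furthest to the right of all 91 genes, and the other red points labelled are PAIP2, PAN3 and PAN2.

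Finally, the genes whose profile over the 6 libraries was most like that of PABPC1 or LSM1 were listed, among 10857 genes with a mean of at least 1 FPKM, as a description over 6 libraries that share their group labels and their GC trends. For PABPC1 these were CENPH (Pearson r = 0.972), SPCS1 (0.968), PSMA2 (0.967), TPRKB (0.964) and TRAF3IP2 (0.963), and 12 genes had an r of at least 0.95. For LSM1 these were GSTM4 (Pearson r = 0.999), TUBB (0.995), COX5A (0.994), JPT1 (0.992) and GINS3 (0.992), and 185 genes had an r of at least 0.95. A gene whose groups stand apart resembles many others over so few libraries.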

How the data were processed

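RNA sequencing of MKN-74 cells (3 LV-HOXD9 and 3 LV-Vector libraries, total RNA, stranded kit) was re-analysed from a gene table and a transcript table. The submitters' processing notes name cutadapt, FastQC, HISAT2, StringTie and the build GRCh37. Which versions were run is not given in the sources used here. Both deposited tables hold FPKM values that the authors made with Ballgown, per the methods. Low values showed no whole-read steps (at most 16.3% whole within 0.05 of a read), so depth cannot be stated and counting intervals were left out. The group means of a gene reached 0.500 FPKM in LV-HOXD9, LV-Vector or both throughout the table.

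Values were compared as log2(FPKM + 1) with limma 3.58.1 (R 4.3.3, variance trend), with Benjamini-Hochberg adjustment over the whole table and a threshold of 0.05. The minimum mean of 0.1 FPKM removed 0 genes and 0 transcripts. Fold changes are on this scale, which understates those of low genes. The second rule took unadjusted p-values under 0.05 from an ordinary linear model with a fold over 1.2 or under its inverse. All 10 genes, up to 3 others of each list with the smallest unadjusted limma p under 0.05, the PABPC1 and PABPC4 transcripts of at least 1 FPKM and the 5 genes most like PABPC1 and LSM1 are named. Members, lists, tests and alternatives were chosen with earlier results of these data known, and PAIP2 and LSM1 are in the study's own list of called genes. The tests were tested on simulated data with independent noise for each feature. These held no trends with GC content, so they do not cover the trends seen in these libraries. Immune markers other than LYZ and CD68 are not reported here. Libraries of the same number did not pair (r = -0.173, 0.168 and -0.00641 after removing group means), so no replicate block was used in the main results. Trends with length and GC content (GENCODE release 29 transcripts, matched for 97.3% of genes) were removed by loess with a span of 0.5. Other alternatives were a pseudocount of 0.1, a minimum mean of 1 FPKM or none, quantile normalization, a TPM scale, a replicate block, an ordinary and a robust fit, a fold bound of 1.5, and leaving out libraries. Python 3.11.15, pandas 2.3.3 and matplotlib 3.10.9 were used.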

Additional observations from a re-analysis of the deposited data

How the results depend on the processing

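The log2 fold change had a positive sign for PABPC4 (0.0088 to 0.14) and PABPN1 (0.024 to 0.14) in all 17 alternatives. It had a negative sign for PAIP2, PAN2 and PAN3 in all of them. Both minimum levels, the replicate block and the ordinary and robust fits leave these fold changes as in the main fit by construction. Only the other alternatives could therefore change a sign. In no alternative did a transcript of PABPC1 or PABPC4 pass limma. LSM1 passed limma with a minimum mean of 1 FPKM (0.53, adjusted p = 0.0457), with robust variances (0.53, 0.0483) and with the length and GC trends removed (0.55, 0.0251), so 1 of the 10 genes was then called higher. It did not pass in any fit without 1 library (0.48 to 0.57, adjusted p from 0.0764 to 0.201). The trend removal was first run with the mean of each library kept, and the form without it was taken after both results had been seen, to follow an earlier description of these data. With means kept, a form listed again as an alternative after seeing the data, LSM1 was at 0.50 (adjusted p = 0.0223) and again the 1 gene called higher, PAIP1 at 0.032 and CNOT7 at 0.057, and 206 genes were lower and 81 higher by limma and 128 higher by the unadjusted p and fold. With means removed, 159 genes were lower and 174 higher by limma, 376 lower by the unadjusted p and fold, and 3 of the 10 genes had a lower and 7 a higher mean, with PAIP1 at 0.077, CNOT7 at 0.10 and LARP1 at 0.031. In both forms 0 of the 10 were lower by the unadjusted p and fold.

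Of all genes, 18 were lower and 7 higher by limma. A TPM scale gave 30 and 4, the replicate block 2 and 1, the ordinary linear model 10 and 2, the fit without both libraries of extreme GC trend (replicate 3 of LV-HOXD9 with replicate 2 of LV-Vector) 6 and 3, and leaving out single libraries 2 to 19 lower and 2 to 10 higher. By the unadjusted p and fold, 570 were lower and 240 higher. A TPM scale gave 1065 and 150, quantile normalization 330 and 315, the pair of libraries left out 342 and 153, a fold bound of 1.5 gave 51 and 18, a pseudocount of 0.1 gave 857 lower and the replicate block 329 lower, and single libraries left out 373 to 630 lower and 169 to 332 higher. Of the 10 genes, 2 were lower by this rule with a pseudocount of 0.1 and on a TPM scale, 0 under the replicate block and the 1.5 bound, and 0 to 1 with single libraries left out, and 0 were higher under the 1.5 bound. With the replicate block, whose numbers do not pair the libraries, LSM1 had an adjusted p of 0.210 and PAIP2 of 0.261.

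Signs also turned for values close to 0. PABPC1 was at -0.031 on a TPM scale, -0.052 after quantile normalization and -0.018 to 0.092 with single libraries left out. With single libraries left out PAIP1 ran from -0.093 to 0.031, CNOT7 from -0.22 to 0.003, LARP1 from -0.050 to 0.027, PABPC1-201 from -0.28 to 0.045 and PABPC4-202 from -0.31 to 0.34, and 4 to 7 of the 10 genes had a lower and 3 to 6 a higher mean. Without both libraries PAIP1 was at 0.093, CNOT7 at 0.064 and PABPC1-201 at 0.041. The cause of these changes was not tested. The number of libraries and the unknown depth limit the precision, most of all for transcripts.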

Other observations

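The transcripts of the other 8 genes were not part of the comparison, and the following were chosen after their values were seen. None of these 36 transcripts passed limma (smallest adjusted p 0.688), while 3 were higher at an unadjusted limma p under 0.05, as were 3.22% of all transcripts, and 1 was higher by the unadjusted p and fold, as were 2.42% of all transcripts. In PAIP1, whose gene level differed little between groups, PAIP1-201 had 7.23, 17.9 and 8.92 FPKM in LV-HOXD9 libraries, against 16.6, 22.9 and 15.8 FPKM in LV-Vector libraries, while PAIP1-202 had 26.1, 3.71 and 14.4 FPKM in LV-HOXD9 libraries, against 4.32, 2.06 and 3.27 FPKM in LV-Vector libraries. The library with the highest PAIP1-202 value, LV-HOXD9 replicate 1, had the lowest PAIP1-201 value.

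In PAIP2, PAIP2-201 had 8.77, 15.1 and 25.6 FPKM in LV-HOXD9 libraries, against 24.3, 31.9 and 26.1 FPKM in LV-Vector libraries, so its groups overlapped although those of the gene did not. PAIP2-205 was high in 1 library of each group, with 18.4, 0.708 and 0.987 FPKM in LV-HOXD9 libraries, against 0, 0 and 19.4 FPKM in LV-Vector libraries. The low-level PAIP2-202 ran against the gene, at 1.44, 0.868 and 1.07 FPKM in LV-HOXD9 libraries, against 0.491, 0.624 and 0.432 FPKM in LV-Vector libraries, with a log2 fold change of 0.48, and was the transcript that passed the unadjusted p and fold. For LSM1, the leading transcript LSM1-201 had 10.5, 16.0 and 16.4 FPKM in LV-HOXD9 libraries, against 9.74, 9.96 and 8.09 FPKM in LV-Vector libraries, so its groups stood apart as those of the gene did, with LV-HOXD9 replicate 1 close to the LV-Vector libraries (log2 fold change 0.56, adjusted p = 0.688 from limma). The gene values of PAN2, PAN3 and PABPN1 also stood apart between groups, whereas those of their leading transcripts overlapped. PAN2-203, the only PAN2 transcript listed, had 0.297, 0.788 and 0.288 FPKM in LV-HOXD9 libraries, against 1.41, 0.407 and 0.228 FPKM in LV-Vector libraries. PAN3-202 had 8.55, 9.37 and 6.11 FPKM in LV-HOXD9 libraries, against 9.08, 12.4 and 10.5 FPKM in LV-Vector libraries. For PABPN1-201 the log2 fold change was 0.15.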
